A study of Mus musculus with 12 samples.

Results

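Molecular chaperones are proteins that bind unfolded or partly folded polypeptides and help them to reach, or return to, their native shape. The 10 genes described here encode chaperones of the cytosol and of the endoplasmic reticulum (ER). They were chosen by name, with earlier results of these data known. The cytosolic ones are the HSP70 proteins Hspa8, Hspa1a and Hspa1b, the HSP90 proteins Hsp90aa1 and Hsp90ab1, the HSP110 protein Hsph1, the J protein Dnajb1 and the small heat shock protein Hspb1. The ER proteins are Hspa5 and Hsp90b1. The set makes up 10 of the 36047 genes in the deposited table, and all 10 passed the filter on low values in every comparison.

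In the cytosol, HSP70 proteins bind and release clients in an ATP-driven cycle that J proteins start and HSP110 proteins reset, and many clients then pass to HSP90. Some family members, such as Hspa8 and Hsp90ab1, are made at all times, whereas others, such as Hspa1a, Hspa1b, Hspb1 and Dnajb1, are classical targets of the heat shock factor HSF1, which is set free when unfolded protein accumulates. In the ER, Hspa5 (BiP) and Hsp90b1 (GRP94) do the corresponding work and are classical targets of the unfolded protein response. Neurons are long-lived and cannot dilute misfolded protein by division, so chaperones are often studied in ageing and in neurodegenerative disease.

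RNA was sequenced from mouse brain cortex in 4 groups of 3 libraries, WT and Gde2KO at 4 months and WT and Gde2KO at 19 months. Gde2 is the study's name for Gdpd5, which encodes GDE2, a membrane enzyme that cuts the anchor holding some proteins to the cell surface, and Gde2KO mice carry a knockout of it. The labels name no treatment and give neither the strain nor the sex of the animals. The older libraries were made to look for splicing errors of the kind seen when the RNA-binding protein TDP43 loses its function, and the younger ones to find pathways through which GDE2 acts on nuclear transport and on where TDP43 lies in neurons. The comparisons here ask whether chaperone RNA differed between Gde2KO and WT at each age. The ages come from different animals and library sets, so age and library set cannot be told apart. In bulk tissue, fewer cells of a type and less RNA per cell cannot be told apart either.

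Values are normalized counts, which the authors obtained with Kallisto and Sleuth and which were summed here over the transcripts of each gene; TPM values, which also correct for transcript length, are used where genes are compared with each other. The TPM columns do not sum to a common total and were taken to be scaled by library, which the sources used here do not state. The 4-month libraries held 46434270 to 59728494 estimated reads. Of the 19-month libraries, 4 held 36915259 to 44604721, WT library A held 6734475 and Gde2KO library A held 3707928, so that 1 read stood for 4.66 and 8.29 normalized counts in the shallow pair and for 0.847 at most elsewhere. Library 3 of 4-month Gde2KO stood apart in its totals, with 41229100 normalized counts against 30751100 to 35949200 in the other 11 libraries and 1472300 TPM against 887748 to 1103970. Gdpd5 lay at 684, 702 and 1199 normalized counts in WT and 417, 585 and 403 in Gde2KO at 4 months, and at 1065, 1129 and 952 in WT and 441, 456 and 560 in Gde2KO at 19 months. Its groups did not overlap at either age in normalized counts, beside 15.4% of all genes at 4 months and 14.2% at 19 months. In TPM they overlapped at 4 months, with Gde2KO library 2 at 14.9 against 12.3, 12.7 and 24.4 in WT. The log2 difference of Gdpd5 was -0.85 ± 0.25 at 4 months (adjusted p = 0.463, limma) and -1.11 ± 0.12 at 19 months (adjusted p = 0.0111, limma), where it was called. Markers of neurons summed to between 288705 and 376269 normalized counts in all 12 libraries, and none of the 8 was at 0. Single neuronal markers differed in opposite directions at 4 months, with 5 higher and 3 lower in Gde2KO and none called. Camk2a lay at 121623 ± 9186 in WT and 83869 ± 7239 in Gde2KO, and Snap25 at 60885 ± 8502 and 87260 ± 21048 (mean ± SD). Markers of striatum ran from 3253 to 51970 within the 4-month WT group and from 29177 to 71228 in 4-month Gde2KO, and markers of hippocampus ran from 11203 to 41080 in 4-month WT and from 10041 to 13093 in 4-month Gde2KO. Both sums spread more widely at 4 months than at 19 months. At 19 months striatal markers ran from 6480 to 9309 in WT and from 8612 to 19144 in Gde2KO. Hippocampal markers ran there from 9353 to 9919 in WT and from 11237 to 12114 in Gde2KO, without overlap. Estimates in Gde2KO were higher for 7 of 7 striatal markers at both ages. For hippocampal markers they were lower for 9 of 9 at 4 months and higher for 8 of 9 at 19 months. The part of this in the chaperone values was not tested.

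By TPM the 10 genes fell into 4 tiers that were the same in all 4 groups and did not overlap in any of them. Hspa8, Hsp90ab1 and Hsp90aa1 formed the top tier, with medians over the 12 libraries of 1083, 1079 and 802 TPM. Hsph1, Hsp90b1 and Hspa5 followed at 202, 197 and 191 TPM, and Dnajb1 came next at 40.0 TPM. Hspb1, Hspa1b and Hspa1a formed the lowest tier, with medians of 15.2 TPM for Hspb1 and 14.5 TPM for both Hspa1b and Hspa1a.

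Within tiers the order changed from group to group. In 4-month WT the order was Hsp90ab1 (1309 ± 190 TPM, SD, n = 3), Hspa8 (1034 ± 114) and Hsp90aa1 (986 ± 43.3), with overlapping neighbours. In 4-month Gde2KO it was Hspa8 (1248 ± 350 TPM), Hsp90ab1 (1143 ± 108) and Hsp90aa1 (1022 ± 126), again with overlapping neighbours. In 19-month WT it was Hspa8 (1301 ± 84.5 TPM), Hsp90ab1 (1033 ± 18.4) and Hsp90aa1 (702 ± 23.6), and there no neighbours overlapped. In 19-month Gde2KO, Hsp90ab1 (1059 ± 36.3 TPM) stood above Hspa8 (831 ± 110), which overlapped Hsp90aa1 (680 ± 27.7). Hsph1, Hsp90b1 and Hspa5 overlapped as neighbours in every group except 4-month WT, where Hsph1 stood above Hsp90b1, and the 3 lowest genes overlapped as neighbours in every group.

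**Figure D1:**
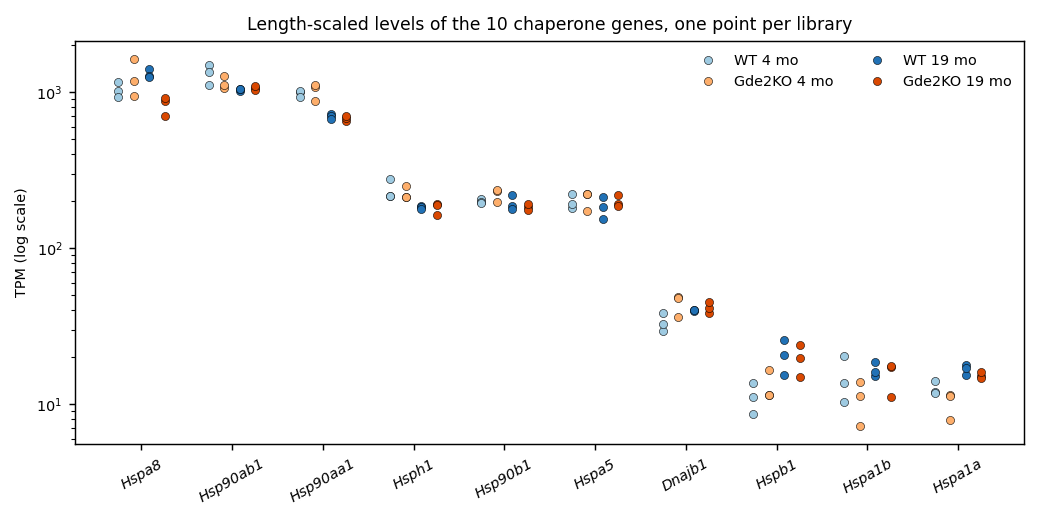
TPM on a log axis for the 10 genes, 1 point for each of the 12 libraries, coloured by group (3 libraries each). Hspa8, Hsp90ab1 and Hsp90aa1 lie at 652 to 1628 TPM, Hsph1, Hsp90b1 and Hspa5 at 153 to 277, Dnajb1 at 29.5 to 48.6 and the lowest 3 genes at 7.30 to 25.7.

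Genotype left no call among the 10 genes at either age. A gene was called when its adjusted p (limma, Benjamini-Hochberg over all genes tested) was under 0.1 and its natural-log fold change was over 0.5, a fold of 1.65. At 4 months 0 of 10 were called, beside 0.126% of the 19035 genes tested, and 1 of 10 had an unadjusted p under 0.05, beside 10.6% of all genes. At 19 months 0 of 10 were called, beside 0.0969% of 18583 genes, and 1 of 10 had an unadjusted p under 0.05, beside 6.91% of all genes. For the interaction of genotype and age, called on the adjusted p alone, 0 of 10 were called, beside 0.0480% of 18731 genes, and 1 of 10 had an unadjusted p under 0.05, beside 12.9% of all genes.

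The median log2 difference between Gde2KO and WT over the 10 genes was 0.16 at 4 months, beside 0.11 over all genes, and -0.07 at 19 months, beside -0.02 over all genes. The single estimates ran from -0.40 to 0.45 at 4 months and from -0.76 to 0.09 at 19 months, with standard errors of 0.14 to 0.31 and of 0.04 to 0.23. At 4 months the ranges of WT and Gde2KO overlapped for all 10 genes, beside 15.4% of all genes whose ranges did not overlap. As shares of each library's total normalized counts, a scaling added after the data were seen, they did not overlap for 2 of the 10, Hspa1a (lower in Gde2KO) and Hsp90b1 (higher in Gde2KO), beside 14.7% of all genes. With shares of TPM instead, the ranges of Hsp90b1 overlapped. At 19 months the ranges of WT and Gde2KO did not overlap for 1 gene, Hspa8, beside 14.2% of all genes. As shares of normalized counts this likewise held for 1, beside 14.3%. With 3 libraries a group an exact permutation test cannot give a p under 0.1, and Hspa8 at 19 months reached that value.

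**Figure D2:**
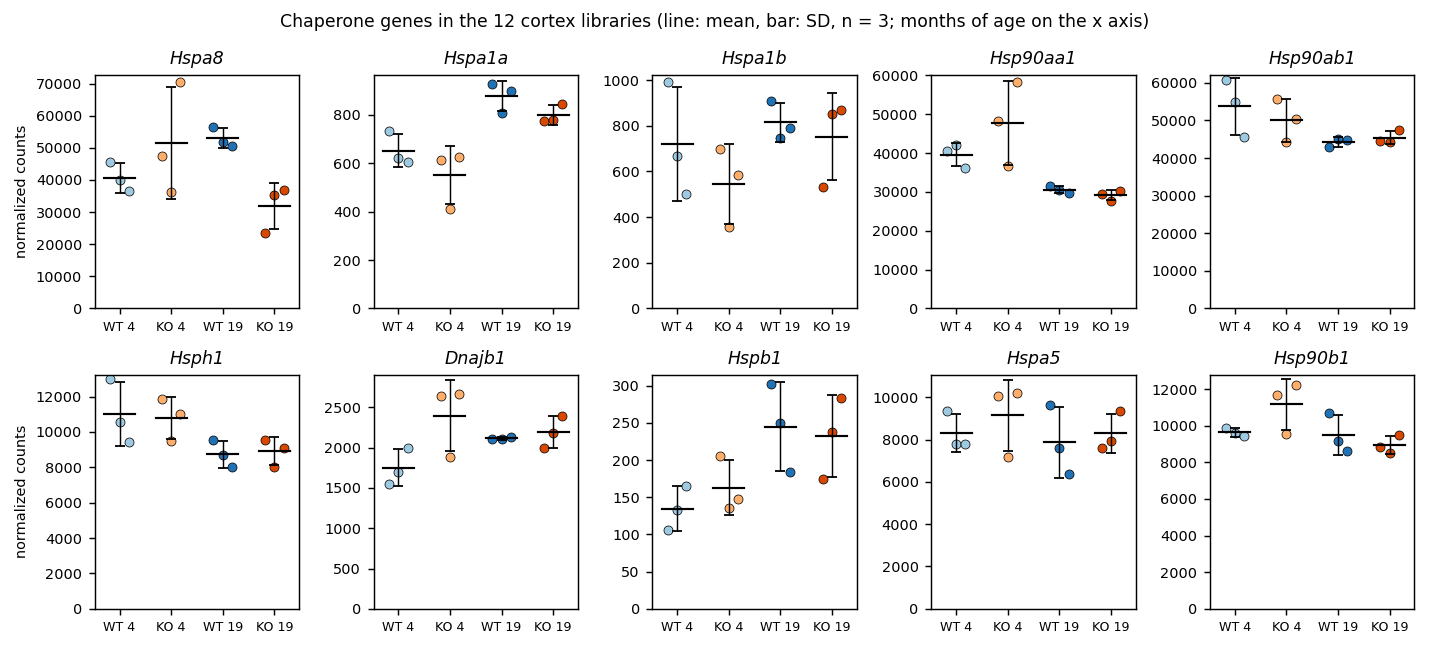
Normalized counts (y axis, from 0) of each of the 10 genes in each library, by genotype and age (KO stands for Gde2KO), with the group mean and SD (n = 3). Hspa8 is lower in every 19-month Gde2KO library than in every 19-month WT library, and Hsp90aa1 is lower in every 19-month library than in every 4-month library.

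Hspa8 encodes HSC70, the constitutive HSP70 that also uncoats clathrin vesicles at synapses. Its gene lies on chromosome 9 of GRCm38 at 40800984 to 40810087, plus strand. At 4 months it lay at 45648, 39966 and 36465 normalized counts in WT and at 47603, 36384 and 70464 in Gde2KO. Gde2KO library 3, the library with the high total, held the highest value of the series, and the other Gde2KO libraries lay just above and just below the WT range. As a share of the total it was second, at 171 per 100000 normalized counts against 180 in 19-month WT library A. At 19 months it lay at 56491, 51731 and 50562 in WT and at 23604.5, 35181 and 36907 in Gde2KO. Every Gde2KO library was below every WT library, and the lowest was the shallow library A.

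The log2 difference of Hspa8 was 0.29 ± 0.25 (SE; adjusted p = 0.588, limma) at 4 months and -0.76 ± 0.15 (adjusted p = 0.288, limma) at 19 months. The interaction was -1.05 ± 0.31 (adjusted p = 0.368, limma). Without Gde2KO library 3 the 4-month difference was 0.04 ± 0.19 (adjusted p = 0.977, limma). Without the shallow library of each genotype, the 19-month difference was -0.51 ± 0.05 (adjusted p = 0.0431, limma), past the p threshold but short of the fold threshold of 0.72 on the log2 scale.

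Hspa8 has near-identical copies elsewhere in the genome, and reads from them are hard to place. A search of the transcript set found 4 processed pseudogenes that match Hspa8 over 500 bases or more at 97% identity or more. Of these only Gm15459 held more than 16.7 normalized counts in any library. Gm15459 lies on chromosome 5 of GRCm38 at 5781615 to 5783555, minus strand, and its single exon of 1941 bases matches bases 371 to 2311 of transcript Hspa8-201, beginning at the start codon, with 5 differences (99.7% identity). Positions are counted from 1 at the A of the start codon, and the Hspa8 base comes before each position, the Gm15459 base after it: G114A, C414T, C549T, G1222A and C1440T. The 31-base windows around 3 of them show how little sequence tells the genes apart, with the differing base in capitals:

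Hspa8 at G114A: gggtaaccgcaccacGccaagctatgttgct

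Gm15459 at G114A: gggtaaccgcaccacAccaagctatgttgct

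Hspa8 at C414T: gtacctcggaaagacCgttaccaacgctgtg

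Gm15459 at C414T: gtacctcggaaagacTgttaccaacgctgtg

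Hspa8 at G1222A: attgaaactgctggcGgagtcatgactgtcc

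Gm15459 at G1222A: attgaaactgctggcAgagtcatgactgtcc

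Gm15459 was high in 8 libraries and low in the other 4. At 4 months it lay at 14346, 13090 and 11287 normalized counts in WT and at 13381, 11047 and 218 in Gde2KO. At 19 months it lay at 327, 503 and 221 in WT and at 20441, 10330 and 10070 in Gde2KO. The 4 low libraries were the 3 of 19-month WT and library 3 of 4-month Gde2KO, which are the 4 libraries with the highest normalized counts of Hspa8. Gm15459 was called higher in Gde2KO at 19 months, with a log2 difference of 5.28 ± 0.33 (adjusted p = 0.00089, limma), and was not called at 4 months (-2.01 ± 1.38, adjusted p = 0.526, limma).

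The sum of Hspa8 and its copies differed less than Hspa8 alone in each of the 5 comparisons. It was 60024, 53078.5 and 47768 normalized counts in 4-month WT, 61011, 47455 and 70707 in 4-month Gde2KO, 56848, 52251 and 50794 in 19-month WT and 44062, 45522 and 46988.5 in 19-month Gde2KO. At 19 months the ranges still did not overlap, but the log2 difference shrank to -0.23 ± 0.05 (adjusted p = 0.451, limma). At 4 months it was 0.14 ± 0.20 (adjusted p = 0.731, limma), and the interaction was -0.37 ± 0.20 (adjusted p = 0.424, limma). The share of the sum assigned to Gm15459 ran from 0.308% to 46.4% over the 12 libraries. How reads were divided between Hspa8 and the copy was not tested.

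**Figure D3:**
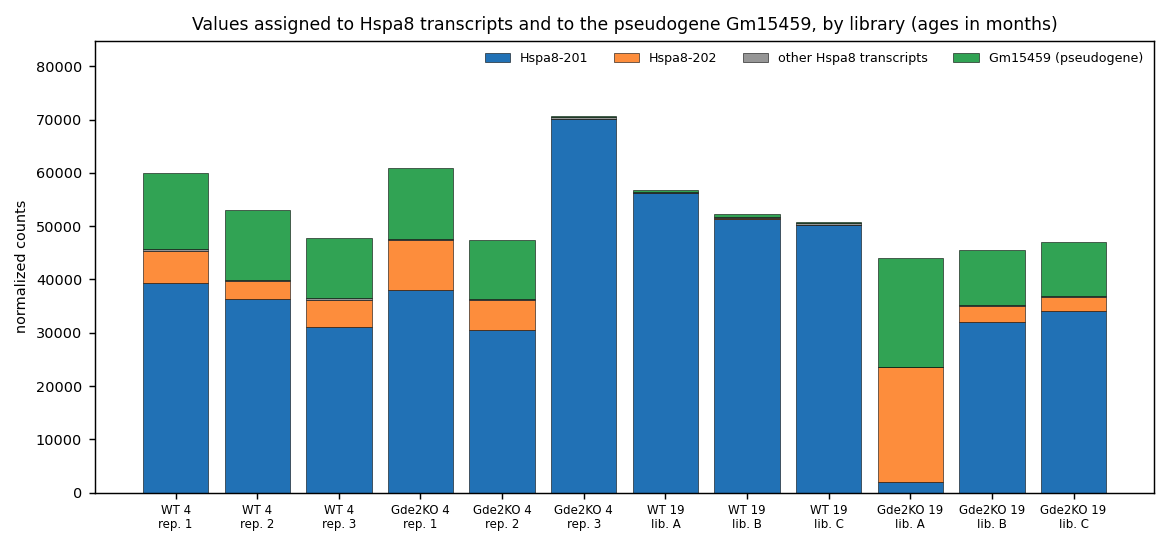
Stacked normalized counts (y axis, from 0) assigned to transcripts Hspa8-201, Hspa8-202 and others of Hspa8 and to the pseudogene Gm15459 in each of the 12 libraries. In 4-month Gde2KO replicate 3 and in all 3 19-month WT libraries nearly the whole column is Hspa8-201, and in 19-month Gde2KO library A Hspa8-201 holds 6.87% of the Hspa8 TPM.

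The same 4 libraries stood apart in the transcripts of Hspa8 itself. Of its 10 transcripts in the table, only Hspa8-201 and Hspa8-202, both protein coding, held over 5% of its TPM in any group. Hspa8-202 has 2019 bases against 2394 in Hspa8-201 and no base of its own: it lacks the first 318 bases of exon 1 and the first 57 bases of exon 4 (chr9:40802739-40802795, GRCm38, plus strand). Those 57 bases, in capitals with 20 bases on each side, are coding and keep the reading frame when left out, and they are the only coding bases of Hspa8-201 that Hspa8-202 lacks. The C414T difference of Gm15459 lies in them.

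Exon 3 to exon 4 of Hspa8-201: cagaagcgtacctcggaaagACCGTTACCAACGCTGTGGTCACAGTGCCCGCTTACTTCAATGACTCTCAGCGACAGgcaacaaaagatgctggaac

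The share of Hspa8 TPM held by Hspa8-202 at 4 months was 15.4%, 9.93% and 16.1% in WT and 22.6%, 17.9% and 0.126% in Gde2KO. At 19 months it was listed at 0 in WT library A and was 0.0369% and 0.0267% in the other WT libraries, against 92.8%, 9.73% and 8.58% in Gde2KO. Gde2KO library A, the shallowest, stood far from the rest: Hspa8-201, which held 76.3% to 98.9% in the other 11 libraries, held 6.87% there. The mean share of Hspa8-202 was 37.0 percentage points higher in Gde2KO at 19 months, and transcript usage was called (adjusted p = 0.00181, limma diffSplice F test, adjusted p under 0.1 and a share difference over 10 points). This stands beside 0.171% of 12253 genes called. That Hspa8 usage is called at 19 months was known from earlier results of these data before the test was run here. On the logit of the share, usage was not called (adjusted p = 0.838, limma). Without Gde2KO library A the difference was 9.13 points (adjusted p = 0.00102, limma diffSplice), which is under the share threshold.

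At 4 months the mean share differed by -0.28 points and usage was not called (adjusted p = 0.961, limma diffSplice), beside 0.997% of 12235 genes called. With the copies counted as transcripts of Hspa8, usage was called at 19 months (adjusted p = 0.000105, limma diffSplice) and not at 4 months (adjusted p = 0.938, limma diffSplice). Of the other members with at least 2 transcripts tested, 6 at 4 months and 7 at 19 months, none was called, and their adjusted p ran from 0.429 up at 4 months and from 0.979 up at 19 months (limma diffSplice). Hsp90aa1 came nearest in share, with a largest difference of 9.59 points at 4 months, where the retained-intron transcript Hsp90aa1-205 held 25.7% ± 2.56 in WT and 16.2% ± 8.89 in Gde2KO (SD, n = 3). Gde2KO library 3 was the lowest for it, at 6.02%.

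Hspa1a and Hspa1b encode nearly the same inducible HSP70 from neighbouring genes on chromosome 17, at 34969190 to 34972156 and 34956436 to 34959238 of GRCm38, both on the minus strand. Their transcripts match at 99.2% over 2201 bases, so reads can be split between them by the counting. At 4 months Hspa1a lay at 732, 620 and 604 normalized counts in WT and 613, 412 and 625 in Gde2KO. Hspa1b lay at 992, 666 and 501 in WT and 698, 355 and 584 in Gde2KO. The ranges overlapped for both, and Gde2KO library 2 was the lowest of the 6 for both. As shares of the total, Hspa1a lay at 2.17, 1.91 and 1.84 per 100000 in WT and 1.71, 1.29 and 1.52 in Gde2KO, without overlap.

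At 19 months Hspa1a lay at 926, 807 and 899 normalized counts in WT and 772, 776 and 845 in Gde2KO, and Hspa1b at 907, 745 and 791 in WT and 533, 852 and 870 in Gde2KO. The lowest Hspa1b value, 533, stood in Gde2KO library A and rests on 64 reads. The log2 differences at 4 and 19 months were -0.26 ± 0.19 and -0.14 ± 0.09 for Hspa1a and -0.40 ± 0.31 and -0.15 ± 0.18 for Hspa1b, with adjusted p of 0.542 or more (limma). The sum of the pair differed by -0.34 ± 0.24 at 4 months and -0.13 ± 0.11 at 19 months (adjusted p = 0.539 and 0.759, limma). Without the shallow libraries the 19-month difference of Hspa1b was 0.17 ± 0.08, with the opposite sign.

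Hsp90aa1 and Hsp90ab1 encode the inducible and the constitutive cytosolic HSP90, which hold kinases and receptors in a shape ready for activation. Hsp90aa1 lay at 40504, 42050 and 36230.5 normalized counts in 4-month WT and 48339, 36767 and 58428 in 4-month Gde2KO. It lay at 31464, 30476.5 and 29721 in 19-month WT and 29574, 27769 and 30303 in 19-month Gde2KO. The genotypes overlapped at both ages, and library 3 of 4-month Gde2KO was the highest of all in normalized counts. As a share of TPM it was the lowest of the 6 4-month libraries, at 75.9 per 100000 against 86.2 to 101 in the others, so its rank depends on the scaling. The genotype differences were 0.25 ± 0.20 and -0.07 ± 0.05 (log2; adjusted p = 0.565 and 0.746, limma), and the former was 0.09 ± 0.18 without Gde2KO library 3 (adjusted p = 0.920, limma) and 0.05 ± 0.19 with TPM (adjusted p = 0.931, limma). The 3 copies of Hsp90aa1 found by the same search held 0.413% or less of the sum each, and adding them left the genotype differences at 0.25 and -0.07.

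Hsp90ab1 lay at 60650, 54907 and 45695 normalized counts in 4-month WT and 55659.5, 44206 and 50346.5 in 4-month Gde2KO. It lay at 42853, 45131 and 44875 in 19-month WT and 44535, 44246.5 and 47509.5 in 19-month Gde2KO. The genotypes overlapped at both ages, and the differences were -0.10 ± 0.18 and 0.04 ± 0.04 (log2; adjusted p = 0.792 and 0.823, limma). The 19-month libraries varied less, with a SD of 1248 in WT and 1806 in Gde2KO against 7545 and 5732 at 4 months.

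Hsph1, an HSP110 that exchanges the nucleotide of HSP70, ranged from 9434 to 12975 normalized counts in 4-month WT and from 9482 to 11848 in 4-month Gde2KO. At 19 months it ranged from 8008 to 9523 in WT and from 8026 to 9554 in Gde2KO. The genotype differences were -0.02 ± 0.16 and 0.03 ± 0.08 (log2), the smallest of the 10 genes at both ages. Dnajb1, a J protein that hands clients to HSP70, showed the largest difference at 4 months. It lay at 1547, 1701 and 2002 normalized counts in WT and 2640, 1890 and 2666 in Gde2KO, where 2 Gde2KO libraries stood above WT and library 2 lay within it. As shares of the total normalized counts Gde2KO libraries 1 and 3 still stood above WT. As shares of TPM only library 1 did, at 4.40 per 100000 against 2.81 to 3.63 in WT, and libraries 2 and 3 lay within WT at 3.54 and 3.24. The log2 difference was 0.45 ± 0.18, with an unadjusted p of 0.0356 and an adjusted p of 0.463 (limma). At 19 months Dnajb1 lay at 2110, 2105 and 2136 in WT and 1998, 2187 and 2394 in Gde2KO (0.05 ± 0.07, adjusted p = 0.866, limma), and the interaction was -0.40 ± 0.20 (adjusted p = 0.400, limma).

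Hspb1 encodes HSP27, a small heat shock protein that holds unfolded clients without ATP. It lay at 106, 133 and 165 normalized counts in 4-month WT, 205, 136 and 147 in 4-month Gde2KO, 303, 250 and 184 in 19-month WT and 174, 238 and 284 in 19-month Gde2KO. The genotypes overlapped at both ages, and the value of 174 in Gde2KO library A rests on 21 reads, whose counting error alone is 21.8%. The genotype differences were 0.27 ± 0.24 and -0.08 ± 0.23 (log2; adjusted p = 0.602 and 0.940, limma).

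Promoters of the inducible cytosolic genes were searched because the heat shock element, the site of HSF1, is built of units GAA and TTC that alternate with 2 bases between. RefSeq start sites on GRCm38.p6 gave 9 windows of 250 bases for 7 of the 10 genes, and Hspa8, Hsp90aa1 and Hsp90ab1 are not analysed here. Perfect runs of 3 units were found in 0 of the 9 windows, beside 0.466% of 32851 promoters. Pairs of units (GAA then TTC, or TTC then GAA, with 2 bases between, a search added after the first) were found in 5 of 9, beside 12.8% of all promoters. The 5 windows were those of Hspa1a, Hspa1b and Hspb1 and both of Hsph1, whose match is 1 site. Neither window of Dnajb1 held a pair or a run of 3. The second of them (chr8:83608298-83608547) begins after the annotated start of the gene at 83608193. The matches are in capitals:

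Hspa1a, chr17:34972243-34972270, minus strand: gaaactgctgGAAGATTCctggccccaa

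Hspa1b, chr17:34959325-34959352, minus strand: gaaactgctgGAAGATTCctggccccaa

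Hspb1, chr5:135887792-135887819, plus strand: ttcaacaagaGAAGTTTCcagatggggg

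Hspb1, chr5:135887812-135887839, plus strand: gatgggggcaGAACCTTCctggccccgc

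Hsph1, chr5:149636352-149636379, minus strand: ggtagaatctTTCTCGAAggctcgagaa

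Neither ER chaperone was called between genotypes. Hspa5 encodes BiP, the HSP70 of the ER, which also holds the stress sensors of the unfolded protein response inactive. It lay at 9359, 7813 and 7799 normalized counts in 4-month WT and 10041, 7189 and 10188 in 4-month Gde2KO, and at 9653, 7578 and 6369 in 19-month WT and 7613, 7926 and 9353 in 19-month Gde2KO. The ranges overlapped at both ages, and the differences were 0.12 ± 0.17 and 0.09 ± 0.14 (log2; adjusted p = 0.738 and 0.863, limma). Hsp90b1 encodes GRP94, the HSP90 of the ER. It lay at 9874, 9623 and 9416 in 4-month WT and 11698, 9570 and 12233 in 4-month Gde2KO, where the ranges overlapped through Gde2KO library 2. As shares of the total normalized counts they did not overlap, at 28.8 to 29.6 per 100000 in WT and 29.7 to 32.5 in Gde2KO. As shares of TPM they overlapped, at 18.49 to 19.75 per 100000 in WT and 15.95 to 20.97 in Gde2KO. Gde2KO library 3 was there the lowest, so the separation depends on the scaling. At 19 months Hsp90b1 lay at 10697, 9178 and 8606 normalized counts in WT and 8815, 8525 and 9513 in Gde2KO. The differences were 0.20 ± 0.14 and -0.08 ± 0.08 (log2; adjusted p = 0.523 and 0.789, limma).

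Both ER genes carry a perfect ER stress response element, CCAAT followed by CCACG with 9 bases between, in the 250 bases before the RefSeq start. These are the only 2 of the 9 chaperone windows with it, beside 0.113% of all promoters. Hspa5 holds 1 match, at -65 to -47 from the start, and Hsp90b1 holds 2, at -212 to -194 and, on the other strand, at -107 to -89. The cyclic AMP response element, searched as its perfect palindrome, was in 0 of the 9, beside 1.55% of all promoters. The paired 5-base units are in capitals:

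Hspa5, chr2:34772020-34772048, plus strand: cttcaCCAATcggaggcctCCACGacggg

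Hsp90b1, chr10:86705633-86705661, minus strand: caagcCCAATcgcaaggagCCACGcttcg

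Hsp90b1, chr10:86705528-86705556, minus strand: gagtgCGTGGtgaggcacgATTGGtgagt

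**Figure D4:**
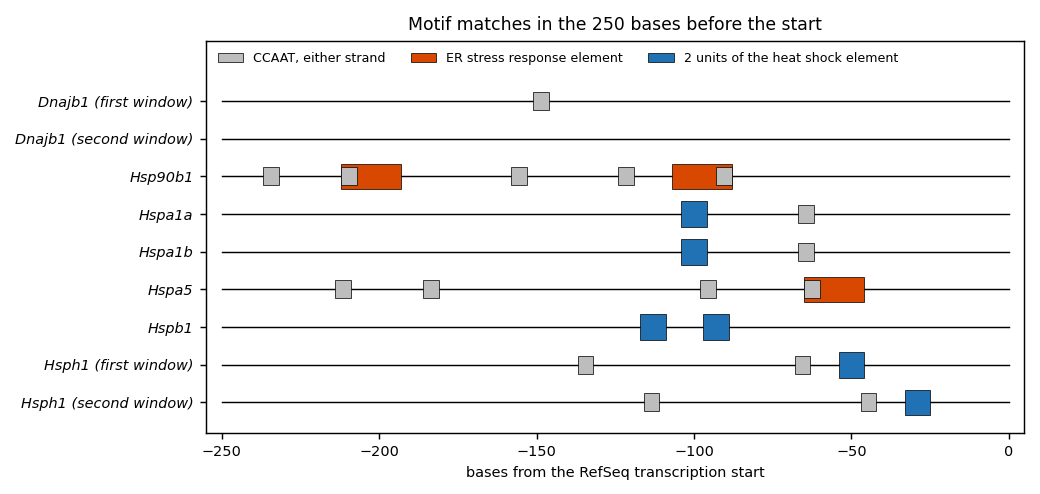
Matches in the 250 bases before the RefSeq transcription start (x axis, bases from the start) of the 9 windows of 7 chaperone genes. Orange boxes, the ER stress response element, are in Hspa5 and Hsp90b1, and blue boxes, 2 units of the heat shock element, are in Hspa1a, Hspa1b, Hspb1 and Hsph1.

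The genes whose levels moved most like those of 4 members were found by Pearson's r over the 12 libraries, on log2 values centred within each age, among 14294 other genes. For Hspa5 they were Sdf2l1 (0.95), Hadha (0.93), Pdia6 (0.91), Manf (0.91) and Dnajc3 (0.91), of which all but Hadha are ER chaperones or folding enzymes of the list used for the partner genes. For Hsp90b1 they were Cbx1 (0.97), Asb8 (0.96), Agpat1, Cdk2ap2 and Prpf18 (0.94 each). For Hspa1b they were Src (0.97), Unc5a, Prlr, Sin3b and Rtn4rl1 (0.94 each), and for Hspa8 they were Zfp273 (0.97), Ndufaf4 (0.96), 2700062C07Rik, Enkur and Gba2 (0.95 each). These values are descriptions over few libraries, which differed in depth and in their striatal and hippocampal markers. The correlations of Hspa8 used its counts without the copies, and the share of the sum assigned to Gm15459 ran from 0.308% to 46.4%. The sum with the copies was not used.

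Age gave 1 call among the 10 genes, Hspb1 in WT. In WT 1 of 10 was called between 4 and 19 months, beside 13.7% of 18731 genes, and 3 of 10 had an adjusted p under 0.1 at any fold, beside 28.2%. In Gde2KO 0 of 10 were called, beside 11.9%, and 4 of 10 had an adjusted p under 0.1 at any fold, beside 32.3%. The ranges of the ages did not overlap for 6 of 10 genes in WT, beside 46.0% of all genes, and for 3 of 10 in Gde2KO, beside 41.2%. As shares of the library total these counts were 5 of 10 in WT, beside 45.4%, and 2 of 10 in Gde2KO, beside 41.2%. These shares are near the background, and the age values are given as descriptions of each gene. The median log2 difference of all genes was -0.07 in WT and -0.21 in Gde2KO, and the latter was -0.05 with median-ratio scaling.

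Hspb1 was 1.81-fold higher at 19 months in WT (log2 difference 0.85 ± 0.26, adjusted p = 0.0376, limma), and every 19-month WT library stood above every 4-month one. In Gde2KO the log2 difference was 0.51 ± 0.26 (adjusted p = 0.167, limma), with overlapping ranges. Without the shallow libraries the WT difference was 0.69 ± 0.25 (adjusted p = 0.102, limma) and was not called. Hspa1a was higher at 19 months in both genotypes, by 0.43 ± 0.15 in WT and 0.56 ± 0.15 in Gde2KO (log2; adjusted p = 0.0704 and 0.0269, limma), under the fold threshold and with no overlap. Under the 3 other scalings the Gde2KO difference was 0.72 to 0.77 and was called. Hspa1b differed by 0.23 ± 0.29 and 0.48 ± 0.29 (adjusted p = 0.603 and 0.234, limma).

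Hsp90aa1 was lower at 19 months in both genotypes, with differences of -0.37 ± 0.14 in WT and -0.69 ± 0.14 in Gde2KO (log2; adjusted p = 0.0879 and 0.0106, limma), and no 19-month library reached a 4-month one in normalized counts. As shares of TPM the ages overlapped in Gde2KO. Hspa8 differed by 0.38 ± 0.22 in WT and -0.66 ± 0.22 in Gde2KO (adjusted p = 0.240 and 0.0507, limma), and with its copies added by -0.0042 ± 0.14 and -0.37 ± 0.14 (adjusted p = 0.987 and 0.0761, limma). Hsp90b1 differed by -0.03 ± 0.11 in WT and -0.31 ± 0.11 in Gde2KO (adjusted p = 0.883 and 0.0615, limma). Hsp90ab1, Hsph1, Dnajb1 and Hspa5 had adjusted p of 0.103 or more at both genotypes (limma), with log2 differences between -0.32 and 0.28.

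**Figure D5:**
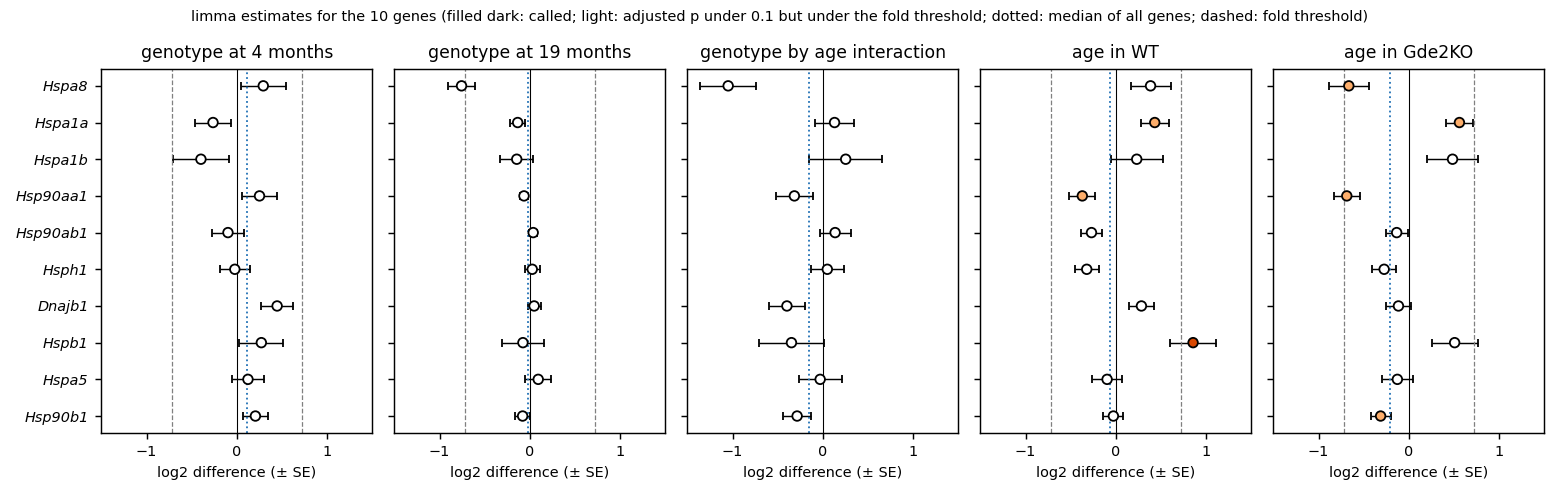
Log2 differences with standard errors (x axis) for the 10 genes in the 5 comparisons, from limma; the interaction is the 19-month minus the 4-month genotype difference. Only Hspb1 in the comparison of ages in WT passes both thresholds, and Hspa8 is farthest from 0 at 19 months (-0.76) and in the interaction (-1.05).

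The wider chaperone network was described by lists of partner genes. By genotype, none of the 105 genes tested in the 9 lists of chaperones, cofactors and stress factors was called. This held at 4 months, at 19 months and in the interaction, beside 0.126%, 0.0969% and 0.0480% of all genes. With shares this low, 0 calls among 105 genes is near the background. At 4 months all 13 tested subunits of the TRiC chaperonin and prefoldins, which fold actin and tubulin, had higher estimates in Gde2KO (median 0.18 on the log2 scale, beside 0.11 over all genes), as did all 6 small heat shock proteins other than Hspb1 (median 0.55). At 19 months 10 of 13 and 6 of 6 had lower estimates (medians -0.05 and -0.27, beside -0.02). Over all genes, 36.8% of estimates were lower in Gde2KO at 4 months and 55.4% at 19 months. The 4-month median over all genes depended on the scaling, and was 0.011 with median-ratio and 0.0060 with TMM scaling. Of the 22 co-chaperones 16 were higher at 4 months and 17 lower at 19 months (medians 0.17 and -0.07). Among the estimates with the smallest p of their list at 4 months were Fkbp5, a glucocorticoid-induced partner of HSP90 (-0.76), Hspb3 (1.89) and the J protein Dnajb2 (0.43), each with an adjusted p of 0.463 (limma). Hspb3 lay low, at 22.7 ± 22.0 normalized counts in 4-month WT and 67.4 ± 33.3 in 4-month Gde2KO (mean ± SD).

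Of 18 ER chaperones and folding enzymes 15 had higher estimates in 4-month Gde2KO (median 0.11, beside 0.11 over all genes) and 10 in 19-month Gde2KO (median 0.02). The smallest p values were those of Dnajb9 and P4hb at 4 months (0.34 and 0.28, adjusted p = 0.476 and 0.484, limma) and of Dnajb9 and Ppib at 19 months (-0.19 and -0.11, adjusted p = 0.711 and 0.734, limma). Of 16 sensors, factors and targets of the unfolded protein response 13 had higher estimates at 4 months (median 0.22), led by Ppp1r15a (0.54, adjusted p = 0.463, limma) and Ddit3 (0.53, adjusted p = 0.463, limma), and 11 had lower ones at 19 months (median -0.06).

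Between ages, 5 of the 105 genes in these lists were called in WT (4.76%, beside 13.7% of all genes) and 8 in Gde2KO (7.62%, beside 11.9%). Both shares are under the background, and the calls are given as values of single genes. In Gde2KO the prefoldin subunits Pfdn1, Pfdn4, Pfdn5 and Vbp1 were lower at 19 months (-0.96, -0.84, -0.76 and -0.85, adjusted p = 0.0110 to 0.0383, limma). The mitochondrial cochaperonin Hspe1 (-0.86, adjusted p = 0.0130), Cacybp (-0.84, adjusted p = 0.0159) and the HSF1-binding protein gene Hsbp1 (-0.75, adjusted p = 0.0119) were lower there too (limma). For each of these genes the SD was larger in 4-month Gde2KO than in 4-month WT. Pfdn1 lay at 1746 ± 943 normalized counts in 4-month Gde2KO and 1184 ± 89.2 in 4-month WT, and Hspe1 at 2272 ± 839 and 1883 ± 137 (mean ± SD). Over all genes, age calls in Gde2KO numbered 2224, and 1096 without 4-month Gde2KO library 3. In WT the small heat shock proteins Hspb7, Hspb3 and Hspb6 (2.08, 1.76 and 0.80, adjusted p = 0.0159 to 0.0764, limma) and Hsf4 (1.22, adjusted p = 0.00482) were higher at 19 months. Hspb7 and Hspb3 lay low, at 5.48 ± 2.42 and 22.7 ± 22.0 normalized counts in 4-month WT (mean ± SD). In 19-month WT they lay at 25.2 ± 12.1 and 59.2 ± 18.1, and 1 read stood for 4.66 normalized counts in library A there. Trib3, a target of the unfolded protein response, was higher in both genotypes (1.69 and 1.25, adjusted p = 0.0337 and 0.0849, limma). None of the other HSP70 and HSP110 genes, J proteins and ER chaperones was called. Of the 6 small heat shock proteins other than Hspb1, 3 were called higher in WT (median 0.82, beside -0.07 over all genes), whereas in Gde2KO none was called and 4 had lower estimates (median -0.18, beside -0.21). Markers of smooth muscle and pericytes summed in WT to 3066 to 3327 normalized counts at 4 months and 3696 to 4604 at 19 months, with 3 of 5 called higher (median 1.34). In Gde2KO they summed to 3211 to 4236 and 4183 to 4337, also with 3 of 5 called higher (median 1.02). Of 5 blood markers, 4 were called higher in WT and 0 in Gde2KO (medians 1.59 and 0.64). These counts stand beside 13.7% of all genes called in WT and 11.9% in Gde2KO, and the part of these cells in the small heat shock proteins was not tested.

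Immediate early genes respond within minutes to neuronal activity. In 4-month Gde2KO all 12 had higher estimates (median 1.77 on the log2 scale), and Btg2, Nr4a1 and Dusp6 were called, beside 0.126% of all genes (1.78, 1.60 and 1.06, adjusted p = 0.0626 to 0.0663, limma). At 19 months 7 of 12 were higher and none was called (median 0.04). In 4-month WT the spread was wide for some, such as Egr1 (4487 ± 3573 normalized counts, mean ± SD), and narrower for others, such as Junb (2326 ± 309). Between ages 11 of 12 had higher estimates at 19 months in WT, with 3 called, beside 13.7% of all genes. In Gde2KO 11 of 12 had lower estimates at 19 months, with 6 called, beside 11.9%. Hspa1a and Hspa1b, which heat and other stress induce, had lower estimates in 4-month Gde2KO than in WT, whereas Dnajb1 had a higher one. The part of the immediate early response in these values was not tested.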

How the data were processed

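Polyadenylated RNA of 12 mouse cortex samples was sequenced. Per the study's methods, the authors quantified reads against GRCm38 transcripts with Kallisto and used Sleuth downstream, versions not given in the sources used here; trimming is described only for a splicing analysis not used here. The deposited signal values are normalized estimated counts per transcript and TPM. The TPM columns do not share a common total and were taken to be scaled by library. Here they were summed per gene, and log2(normalized count + 0.5) was fitted with limma 3.58.1 (intensity trend) in R 4.3.3, over genes with at least 5 normalized counts in 47% of the libraries, with Benjamini-Hochberg adjustment. For transcript usage the F test of limma's diffSplice was run.

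Calls needed both an adjusted p below 0.1 and a natural-log fold change beyond 0.5, except interactions, where the adjusted p alone decided. Single values had an exact two-sided permutation test. The methods were tested on simulated data. Estimated reads per library are the total divided by the most frequent non-zero transcript value, taken as the value of 1 read, and low reads limit the rare genes. P-values measure the spread between these libraries.

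Genes named are the 10 chaperones, Gdpd5, list members called or else the 2 of smallest p in their list, and the 5 genes most correlated with Hspa1b, Hspa8, Hspa5 and Hsp90b1. Gm15459 and the other near-identical copies were added after their values were seen, as was the search for 2 units of the heat shock element. The members and lists were chosen with earlier results of these data known. Each fit was repeated with changed pseudocounts, filters, scalings (median-ratio, TMM, quantile) and weights, and with libraries left out. The 19-month libraries are called A to C because their columns carry no matching replicate numbers.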

Additional observations from a re-analysis of the deposited data

How the results depend on the processing

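Of 1155 chaperone values under alternatives, 1079 kept direction and side of the thresholds, 5 lost a call, 12 gained one and 59 changed sign; the cause was not tested. Genes called by genotype numbered 24 at 4 months, 12 without a filter and without an intensity trend, 2934 with array weights and 14 without WT libraries 1 and 2, a fit that leaves 1 WT library and takes its spread from the 3 Gde2KO libraries. At 19 months they numbered 18, 11 with TPM, 7 without a trend, 77 with array weights and 34 without the shallow libraries. Interaction calls were 9, and 8744 with array weights, 5 of them chaperones. Age calls in WT were 2565, 1692 with a mean of at least 50 and 4240 with array weights.

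Leaving out 1 library gave 5 (without Gde2KO replicate 3) to 1510 (without WT replicate 3) calls at 4 months, 9 to 45 at 19 months, 6 to 2029 (without WT replicate 3) for the interaction, 1525 to 3096 for age in WT and 1096 to 2851 for age in Gde2KO. Chaperones called ran from 0 to 1 for age in WT and 0 to 2 for age in Gde2KO.

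With array weights, log2 differences changed sign for Hspa1b (0.012), Hsp90ab1 (0.015) and Hsph1 (0.13) at 4 months, Hspa1b (0.13) and Hspb1 (0.12) at 19 months, and Hspa1a (-0.0043) and Hsph1 (-0.12) in the interaction. Without WT libraries 1 and 2 they did for Hspa1b (0.068), Hsp90ab1 (0.13), Hsph1 (0.19) and Hspb1 (-0.047). Without the shallow libraries they did at 19 months for Hspa1b (0.17), Hspb1 (0.28) and Hsp90b1 (0.019) and in the interaction for Hspb1 (0.011) and Hspa5 (0.19), and 0 chaperones were called for age in WT (Hspb1 0.69). With TPM they did for Hsph1 at 19 months (-0.016) and Hspa5 in the interaction (0.070).

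With median-ratio, TMM and quantile scaling, the interaction of Hspa5 was 0.092, 0.088 and 0.073, age in WT for Hsp90b1 was 0.015, 0.029 and 0.0089, and age in Gde2KO was 0.049, 0.060 and 0.043 for Dnajb1 and 0.037, 0.048 and 0.025 for Hspa5; for Hsp90ab1 it was 0.030 and 0.040 with the first pair. Each scaling called 1 chaperone for age in Gde2KO, Hspa1a. The age calls there split into 478 higher and 1746 lower, and 725 and 937 with median-ratio scaling. With copies summed, Hspa8 differed by -0.0042 for age in WT.

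Leaving out 1 library, Hsph1 ran from -0.13 to 0.10 at 4 months. At 19 months Hspa1b ran from -0.27 to 0.085, Hsph1 from -0.035 to 0.098, Dnajb1 from -0.018 to 0.11, Hspb1 from -0.27 to 0.12, Hspa5 from -0.050 to 0.25 and Hsp90b1 from -0.15 to 0.0087. In the interaction Hspa1a ran from -0.066 to 0.23, Hspa1b from -0.030 to 0.49, Hsph1 from -0.077 to 0.15 and Hspa5 from -0.19 to 0.13. For age in WT Hspa1b ran from -0.0021 to 0.49, Hspa5 from -0.26 to 0.045, Hsp90b1 from -0.12 to 0.040, and Hspb1, whose call was lost in 4 of 12 fits, from 0.69 to 1.05.

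Usage of Hspa8 at 4 months ran from -4.80 to 6.42 points and was 0.054 with copies as transcripts. At 19 months it ran from 9.13 (without Gde2KO library A) to 51.2 points, was 9.12 without the shallow libraries, and at 37.0 points was not called on the logit scale (adjusted p = 0.838, limma).

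With the replicate block 21 genes were called at 4 months, 0 of them chaperones. Same-numbered libraries correlated at 0.060, 0.0071 and -0.048 in their deviations from the group means. With 3 libraries a group, these values cannot decide whether the numbers mark pairs. No paired analysis was possible at 19 months because the columns carry no replicate numbers.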
